A study of Homo sapiens and Mus musculus with 29 samples.

Results

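The genes described here encode the secreted and membrane-bound signals by which HPAF-II tumor cells can address their host, namely chemokines, interleukins, colony-stimulating factors and ligands of the TNF and TGF-β families. They were taken by gene symbol from a list of 40, all of which were found among the 58719 genes of the HPAF-II table. Of the 40, 32 averaged 0.3 RPKM or more over the 21 HPAF-II libraries and were tested, in a fit of all 19900 genes that passed the same filter. RPKM is the number of reads on a gene per kilobase of its length, scaled to the total reads of the library, so that levels of different genes can be compared per length. The filter uses the mean over all libraries, so a gene could pass through one group alone.

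HPAF-II is an established human line of pancreatic ductal adenocarcinoma (PDAC). The cells were grown as orthotopic tumors in NSG mice (age not given in the labels used here), and tumors and metastases were taken at a humane endpoint. Control tumors (n = 3 mice) came from cells given Cas9 and an empty vector (EV), and FOXA1-OE tumors (n = 3 mice) from cells given Cas9 and a lentivirus that overexpresses FOXA1. Tumors labeled HNF4G-KO (n = 4 mice) came from a pool of CRISPR clones with frameshift mutations in HNF4G, carrying EV, and tumors labeled HNF4G-KO + FOXA1-OE (5 tumors of 4 mice, tumors 2 and 3 from the same animal) from the knockout cells with the FOXA1 virus. Metastases (mets) were 2 from the peritoneum of mice labeled HNF4G-KO and 4 of 3 mice labeled HNF4G-KO + FOXA1-OE, where metastasis 1 lay in the spleen, metastases 2 and 3 in peritoneal fat and metastasis 4 on the peritoneum. Metastases 1 and 2 shared the mouse of tumor 1. A difference between control tumors and the knockout pool is therefore also a difference between an unselected line and a few clones, and these cannot be told apart.

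The targeted gene was checked first. HNF4G mRNA was at 3.47, 2.48 and 2.57 RPKM in control tumors and at 7.10, 8.42, 5.72 and 7.11 RPKM in tumors labeled HNF4G-KO. All 4 were above all control tumors, which goes against the label. With FOXA1-OE added it was at 7.09, 6.16, 6.67, 3.94 and 1.69 RPKM, where only tumor 5 was below the controls. A frameshift can leave an mRNA in place, so the level says nothing of the protein, and every direction below follows the labels alone. FOXA1 was at 6.32 and 8.18 RPKM in FOXA1-OE tumors 1 and 2 but at 0.763 RPKM in tumor 3, within the 0.519 to 0.932 RPKM of control tumors. With the double label it lay between 4.65 and 23.1 RPKM in all 5 tumors. In the metastases of the same label it was at 17.9 RPKM in metastasis 2 and between 0.535 and 1.55 RPKM in metastases 1, 3 and 4, so that 3 of the 4 did not carry the label's FOXA1 level. Depth, worked out from the smallest steps between RPKM values, was 32.9 to 69 M reads per library.

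Chemokines are small secreted proteins that attract leukocytes through G protein-coupled receptors. Those with an ELR motif (CXCL1, CXCL2, CXCL3, CXCL5, CXCL6 and CXCL8) act on CXCR2 and draw neutrophils, and their genes are classical targets of NF-κB. CX3CL1 (fractalkine) is made as a membrane protein and can be shed, and IL1RN occupies the interleukin-1 receptor without signaling and so opposes IL1A and IL1B. Epithelial tumors are known to make many of these factors. NSG mice lack T, B and NK cells but still have neutrophils, monocytes and macrophages.

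Means over the 21 libraries were 77.0 RPKM for CXCL14, 40.8 for CXCL16, 35.0 for GDF15, 29.2 for IL18, 22.9 for TNFSF10 (TRAIL), 22.6 for TGFB1 and 20.03 for LIF. The order differed between groups, and in control tumors CXCL16 (36.2), IL18 (36.1), GDF15 (35.5), TNFSF10 (33.4) and LIF (27.8) all stood above CXCL14 (25.0). In the middle range were CXCL8 (13.7), IL32 (12.9), CCL20 (8.43), TGFB2 (7.41), CXCL1 (6.58), CCL28 (5.83), CX3CL1 (5.35) and CXCL5 (4.61). The least abundant member that was tested was CXCL17, at 0.316 RPKM. The 8 members below the filter were CXCL6 (0.279), CXCL11 (0.250), IL1B (0.233), TNF (0.163), IL6 (0.0385), CSF3 (0.0305), IL33 (0.0212) and CCL2 (0.0113). CCL2, the main attractant of monocytes, was listed at 0 in 15 of the 21 libraries. For TNF the highest level corresponded to about 50 reads and for IL6 to about 41 reads in a library.

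Of 8 markers of the epithelial tumor cells, KRT19 lay between 926 and 2101 RPKM and EPCAM between 195 and 549 RPKM. CEACAM5 ranged more widely, from 27.2 to 1126 RPKM. In tumors labeled HNF4G-KO, CEACAM5 was higher than in controls by 2.82 on the log2 scale (limma adjusted p = 0.00623). CEACAM6 was higher by 2.00 (adjusted p = 0.00273). Both were also called higher with FOXA1-OE added, against control and against FOXA1-OE tumors. No other marker of this list was called in these comparisons. Because the libraries are from bulk tissue, fewer cells of a type and less RNA per cell cannot be told apart. Mouse RNA could also reach the human alignment. Summed over 15 genes of host stroma (collagens and others, 12 at 0.3 RPKM or more) the level was 67.0 to 209 RPKM in control tumors, 38.1 to 168 in FOXA1-OE tumors, 56.7 to 79.6 in tumors labeled HNF4G-KO, 57.0 to 127 with FOXA1-OE added, 82.5 and 436 in the mets of the single label and 80.7 to 226 in those of the double label. Of 14 genes listed as host myeloid and blood, 7 reached 0.3 RPKM, among them LYZ, at 57.4 to 744 RPKM, CD14 (2.68 to 18.1), CD74 (0.542 to 5.55), CSF1R (0.162 to 3.05), AIF1 (0.187 to 1.90) and HBB (0.0241 to 8.19). Of the others, CD68 reached 1.01 RPKM, S100A9 0.648, FCER1G 0.473, ITGAM 0.336, PTPRC 0.331, TYROBP 0.217 and HBA1 0.0546, and S100A8 was at 0 in all 21 libraries. LYZ thus stood far above the rest of the list, and whether its reads came from host or tumor cells was not tested. CD14, of the same list, was lower in tumors labeled HNF4G-KO than in controls by 1.41 on the log2 scale (limma adjusted p = 0.00540), as was AIF1 by 0.88 (adjusted p = 0.0236). The list did not move as a whole. CSF1R (-0.69) and HBB (-0.97) stood lower, CD74 (0.79), CD68 (0.23) and LYZ (0.10) stood higher, and none of these was called. Their part in the results below was not tested. Endothelial markers summed to at most 1.76 RPKM, and lymphoid markers to at most 2.03. The summed pancreas markers were at 7.05, 14.4 and 718 RPKM in control tumors and 4.61 to 74.2 in FOXA1-OE tumors. They were at 1.83 to 12.7 in tumors labeled HNF4G-KO and 0.213 to 72.7 with FOXA1-OE added. All tested genes of this list stood lower in tumors labeled HNF4G-KO than in controls, and none was called. Their part in the results below was not tested. As a guide to how far mouse transcripts could be counted as members, all windows of 50 bases, the read length, in the human transcripts of each member were looked up in mouse transcripts. The share found without mismatch was 0% for CX3CL1, IL1RN, IL18, IL32, IL11, CCL20, TNFSF15, CXCL5 and CXCL8, 0.0747% for CSF1, 0.779% for CXCL14, 1.65% for INHBB and, at the most, 2.73% for INHBA, against 1.25% for COL1A1. COL1A2, of the host stroma list, also had 0% but lay between 2.64 and 76.7 RPKM. A share of 0% thus does not settle whether host reads were counted. Reads with mismatches are not covered by this share.

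The ELR chemokines and the interferon-linked CXCL10 and CXCL11 lie in 2 neighboring groups on chromosome 4 and share a sequence in their promoters. The search was planned for CXC members whose values move together. It is shown here for all members with a match, and these stood at very different levels in these tumors. RefSeq promoter windows (GRCh38.p14, 250 bases before to 50 after a gene's start) were at hand for 31 of the 40 members, with 38 windows in all. The letters GGAATTTCC, the core of a common NF-κB motif, were searched on both strands. They stood in 0.461% of all 35116 promoter windows and, among the members, in CXCL8, CXCL6, CXCL1, CXCL5, CXCL3, CXCL2, CXCL10 and CXCL11. With the looser NF-κB consensus, which 11.3% of all windows hold, matches stood in 14 of the 31 members, among them CCL20, GDF15, IL23A, IL32, IL6, INHBB and TGFB1 but not CXCL8. The stretches of 49 bases around them are given 5′ to 3′ on the strand of the gene, with the match in capitals.
CXCL8: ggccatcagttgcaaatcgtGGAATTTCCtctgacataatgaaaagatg
CXCL6: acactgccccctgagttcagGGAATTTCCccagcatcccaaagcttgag
CXCL1: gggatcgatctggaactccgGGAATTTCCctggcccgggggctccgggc
CXCL5: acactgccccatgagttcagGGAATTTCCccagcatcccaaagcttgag
CXCL3: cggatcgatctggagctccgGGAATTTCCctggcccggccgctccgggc
CXCL2: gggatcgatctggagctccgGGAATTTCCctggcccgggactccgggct
CXCL10: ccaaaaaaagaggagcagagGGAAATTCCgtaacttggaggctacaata
CXCL11: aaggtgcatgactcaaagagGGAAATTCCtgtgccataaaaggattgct
They lie at chr4:73740458-73740506 (CXCL8), chr4:73836569-73836617 (CXCL6), chr4:73869295-73869343 (CXCL1), all on the plus strand, and at chr4:73998739-73998787 (CXCL5), chr4:74038739-74038787 (CXCL3), chr4:74099244-74099292 (CXCL2), chr4:76023645-76023693 (CXCL10) and chr4:76036117-76036165 (CXCL11) on the minus strand. In CXCL10 and CXCL11 the match is on the strand opposite to the gene. The match began 77 to 91 bases before the gene's start in the 6 ELR genes, 75 in CXCL11 and 176 in CXCL10. The CXCL5 and CXCL6 stretches were identical at 48 of 49 bases, and those of CXCL1 and CXCL3 at 45 of 49. A match is a description of the sequence, not of binding.

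Despite the nearly identical stretch, CXCL5 and CXCL6 stood at very different levels. CXCL5 was at 7.81, 7.05 and 9.83 RPKM in control tumors and at 8.72, 5.31, 7.50 and 5.60 RPKM in tumors labeled HNF4G-KO. These ranges overlap, and the difference of -0.26 on the log2 scale (limma adjusted p = 0.755, 95% interval -1.25 to 0.73) was not called. CXCL6, just below the filter and so not in the fit, was at 0.419, 0.443 and 1.60 RPKM in control tumors and at 0.139, 0.0468, 0.0897 and 0.09999 RPKM in tumors labeled HNF4G-KO. Its ranges did not overlap, with a mean 8.74-fold higher in control tumors. It was singled out after its values were seen, so this is a description without a test. Its levels in FOXA1-OE tumors were 0.897, 0.859 and 0.417 RPKM. In tumors labeled HNF4G-KO + FOXA1-OE it was between 0.0355 and 0.0840 RPKM except in tumor 4, at 0.609 RPKM. These are few reads, from about 4 to about 159 per tumor. PF4V1, the gene next to CXCL6 which encodes a variant of platelet factor 4 and is no member, was also lower in tumors labeled HNF4G-KO (0.868 RPKM in controls against 0.218, log2 difference -0.61, adjusted p = 0.0191), and 11.1% of its 50-base windows are shared with other genes.

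The other ELR chemokines gave no call in any comparison of primary tumors. CXCL8 was at 8.47, 11.8 and 12.2 RPKM in control tumors, at 10.5, 6.51 and 1.78 in FOXA1-OE tumors, at 13.7, 21.2, 18.2 and 9.46 in tumors labeled HNF4G-KO and at 26.9, 13.8, 26.5, 11.0 and 5.36 in those with FOXA1-OE added. The groups overlap, and the spread within the last group exceeds the difference between group means. CXCL1 was between 3.65 and 11.6 RPKM over all libraries, CXCL2 between 1.73 and 6.76, and CXCL3 between 0.981 and 7.78. Of the 50-base windows of CXCL2, 13.4% are shared with CXCL3 or CXCL1, while 6.01% of those of CXCL3 and 4.57% of those of CXCL1 are shared with CXCL2, so part of their reads cannot be assigned with certainty. CXCL10 was between 0 and 2.64 RPKM and CXCL11 between 0 and 0.590 RPKM.

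The first comparison asks what differs between tumors with the HNF4G-KO label and control tumors. Among all genes tested 9.33% were called (limma, adjusted p under 0.05), and of the 32 members 7 were called (21.9%), of which 2 were higher and 5 lower. The median difference over the members was -0.16 on the log2(RPKM + 1) scale, against -0.0022 over all genes. CX3CL1, IL11, IL18, CSF1 and INHBB fell and CXCL14 and IL1RN rose.

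CX3CL1 (ENSG00000006210.6, chr16:57372477-57385044, plus strand) showed the largest difference. Control tumors held 13.7, 12.7 and 12.6 RPKM. FOXA1-OE tumors held 17.7, 14.98 and 11.6 RPKM. In tumors labeled HNF4G-KO it was at 1.91, 2.86, 1.49 and 1.94 RPKM, and with FOXA1-OE added at 1.91, 1.23, 1.05, 5.46 and 1.66 RPKM. Every tumor with the knockout label was thus below every tumor without it. All 6 mets, at 0.831 to 3.04 RPKM, were in the lower range as well. The mean of 13.01 ± 0.589 RPKM (SD, n = 3) in controls compares with 2.05 ± 0.577 RPKM (SD, n = 4) under the HNF4G-KO label, which is 6.34-fold lower. On the log2(RPKM + 1) scale CX3CL1 fell by 2.22 (SE 0.30, limma adjusted p = 0.00133). Against control tumors, it fell by 2.12 with FOXA1-OE added (adjusted p = 0.00378). Between the FOXA1-OE groups, which share no tumor with the first comparison, it fell by 2.28 (adjusted p = 0.00119). With only the groups compared in the fit, these 2 adjusted p-values were 0.0662 and 0.0551. Every library held at least about 296 reads of CX3CL1. Its receptor CX3CR1 did not pass the filter.

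INHBB (ENSG00000163083.5, chr2:120346136-120351803, plus strand) encodes the βB subunit of activin B and inhibin B. Its levels were 6.74, 4.94 and 8.46 RPKM in control tumors, 7.62, 10.2 and 1.97 RPKM in FOXA1-OE tumors, 1.66, 2.00, 1.52 and 1.54 RPKM in tumors labeled HNF4G-KO and 1.57, 1.11, 1.88, 3.46 and 0.756 RPKM with FOXA1-OE added. The control tumors do not overlap with either group that carries the knockout label, whereas FOXA1-OE tumor 3, the tumor at control level for FOXA1, lies within them. In tumors labeled HNF4G-KO INHBB fell by 1.504 on the log2 scale (SE 0.39, adjusted p = 0.0305), with a mean of 6.71 ± 1.76 (SD, n = 3) in controls and of 1.68 ± 0.221 RPKM (SD, n = 4) under the label, and by 1.51 with FOXA1-OE added (adjusted p = 0.0480). Against FOXA1-OE tumors the difference was -1.31 (adjusted p = 0.0592). The call against controls was lost whenever any one of the 7 tumors was left out (adjusted p 0.0602 to 0.113), and with the level of host stroma genes as a covariate (-1.06, adjusted p = 0.0695). With FOXA1-OE added it was lost without any one control tumor, tumor 1, tumor 5 or the mouse of tumors 2 and 3 (adjusted p 0.0775 to 0.184). INHBA, the βA subunit, was between 0.215 and 1.86 RPKM and was not called in any of the 9 comparisons.

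CXCL14 (ENSG00000145824.12, chr5:135570679-135579279, minus strand) is a chemokine made by many epithelia. It was at 30.0, 15.5 and 29.5 RPKM in control tumors, 58.1, 53.4 and 114 RPKM in FOXA1-OE tumors, 63.9, 124, 114 and 80.9 RPKM in tumors labeled HNF4G-KO and 202, 99.3, 111, 65.2 and 107 RPKM with FOXA1-OE added. The control tumors were below all 12 other tumors. CXCL14 rose by 1.90 on the log2 scale in tumors labeled HNF4G-KO (SE 0.38, adjusted p = 0.0123), from 25.0 ± 8.21 (SD, n = 3) to 95.7 ± 28.1 RPKM (SD, n = 4), a 3.83-fold difference. With FOXA1-OE added it rose by 2.15 (adjusted p = 0.00967). Without control tumor 2 these adjusted p-values were 0.0738 and 0.0584. FOXA1-OE tumors also stood 1.52 above controls (SE 0.41, adjusted p = 0.840), which was not called. The highest of them, tumor 3 at 114 RPKM, was the tumor at control level for FOXA1. With the knockout label present, tumors with FOXA1-OE stood 0.25 above those without it, and the difference between these effects was -1.27 (95% interval -2.44 to -0.098, adjusted p = 0.514).

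IL1RN (ENSG00000136689.18, chr2:113099315-113134016, plus strand), the interleukin-1 receptor antagonist, was at 0.815, 0.595 and 0.386 RPKM in control tumors and at 0.224, 0.174 and 0.358 RPKM in FOXA1-OE tumors. Tumors labeled HNF4G-KO had 3.18, 2.44, 2.24 and 1.89 RPKM, and those with FOXA1-OE added 3.57, 2.64, 0.823, 1.52 and 2.10 RPKM. All 9 tumors with the knockout label were above all 6 without it, tumor 3 by the least. IL1RN rose by 1.10 on the log2 scale in tumors labeled HNF4G-KO (SE 0.20, adjusted p = 0.00731), which is 4.07-fold in mean RPKM. It rose by 0.96 with FOXA1-OE added against controls (adjusted p = 0.0194, but 0.0792 and 0.104 without control tumor 2 or 3). Between the FOXA1-OE groups it rose by 1.31 (adjusted p = 0.00274, but 0.0676 with only these groups in the fit), an 8.85-fold difference in mean RPKM. The agonists that IL1RN opposes were low. IL1A was at 0.294 to 2.91 RPKM and was not called in any comparison, and IL1B, below the filter, was at 0.0775 to 0.489 RPKM.

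The remaining 3 calls of the first comparison were of smaller size. CSF1 (ENSG00000184371.13), the growth factor of macrophages, was at 1.58, 1.96 and 1.92 RPKM in control tumors and at 0.974, 0.904, 0.846 and 0.858 RPKM in tumors labeled HNF4G-KO, with no overlap. It fell by 0.57 on the log2 scale (SE 0.11, adjusted p = 0.0118, but 0.0693 without control tumor 2). IL11 (ENSG00000095752.6), a cytokine of the IL-6 family that signals through gp130, was at 1.20, 1.13 and 1.38 RPKM against 0.312, 0.503, 0.483 and 0.520 RPKM. It fell by 0.62 (SE 0.14, adjusted p = 0.0187, but 0.0680 and 0.0724 without control tumor 2 or 3). In all, 4 of 14 alternatives lost this IL11 call, with adjusted p up to 0.105. IL18 (ENSG00000150782.11), which is stored as a precursor in epithelia, was at 30.5, 28.9 and 48.8 RPKM against 28.6, 15.8, 16.9 and 18.8 RPKM, where tumor 1 nearly reached the controls. It fell by 0.82 (SE 0.23, adjusted p = 0.0416), a call lost without any single tumor except tumor 1 labeled HNF4G-KO (adjusted p 0.0601 to 0.180). With FOXA1-OE added IL18 was at 29.7, 34.3, 30.8, 35.0 and 27.6 RPKM, within the range of control tumors, and 0.65 above tumors labeled HNF4G-KO (adjusted p = 0.222).

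**Figure D1:**
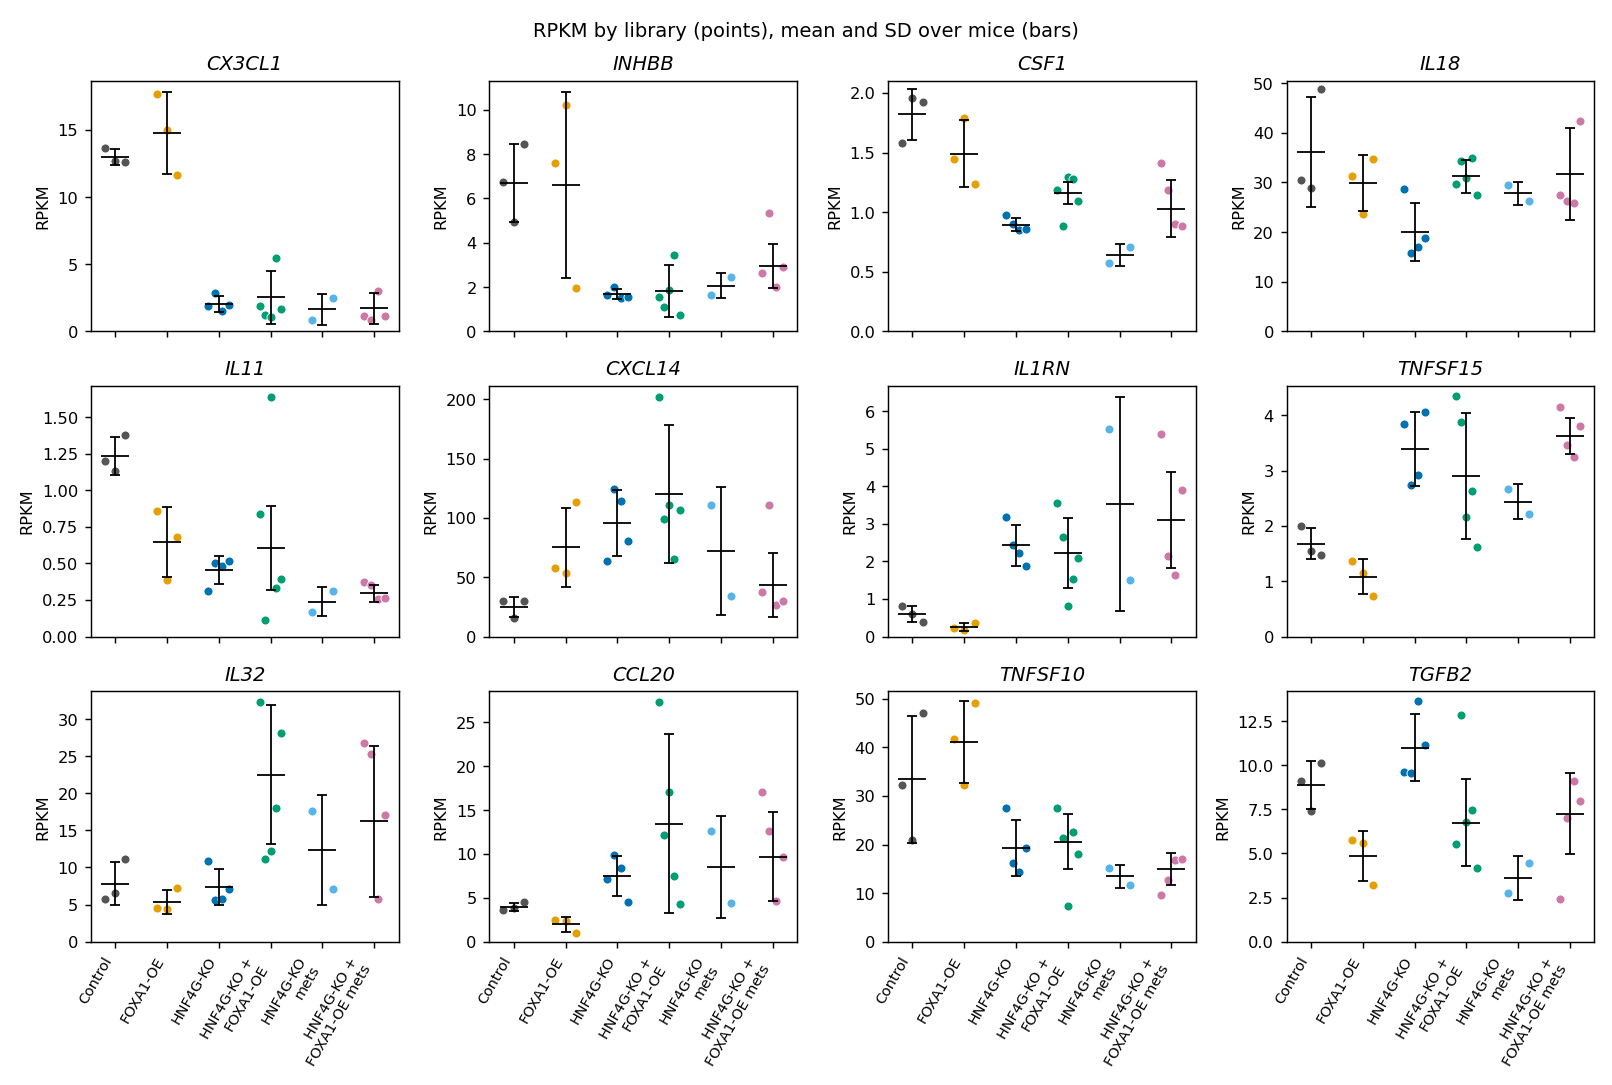
RPKM of 12 members in each library (points) with the mean and SD over mice (bars) in the 4 groups of tumors and the 2 groups of mets, by label; each panel has a linear axis from 0. CX3CL1 is at 11.6 to 17.7 RPKM in the 6 tumors without the knockout label and at 1.05 to 5.46 RPKM in the 9 with it, and IL1RN shows the opposite order.

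The second comparison, FOXA1-OE against control tumors, gave no called gene, that is 0% of all genes tested, and none of the 32 members (smallest adjusted p over all genes 0.237). At an unadjusted p under 0.05 there were 5 members (15.6%) and 5.13% of all genes. The largest differences were -1.48 in CXCL5 (3.50, 4.69 and 0.389 RPKM in FOXA1-OE tumors, SE 0.49), -0.91 in CXCL8, +1.52 in CXCL14 and +0.34 in TNFSF10, all with an adjusted p of 0.840 or 0.845. Tumor 3, the tumor at control level for FOXA1, was the lowest of the FOXA1-OE tumors in CXCL5 and CXCL8 and the highest in CXCL14. TNFSF10, which encodes the apoptosis-inducing ligand TRAIL, was at 32.2, 20.9 and 47.1 RPKM in control tumors and at 41.8, 32.3 and 49.1 RPKM in FOXA1-OE tumors, and these ranges overlap.

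Where both changes were combined, IL32 rose against both control and FOXA1-OE tumors. Tumors labeled HNF4G-KO + FOXA1-OE were set against control tumors (3.7% of all genes called, 5 members called, of which 3 higher and 2 lower), against tumors labeled HNF4G-KO (0.106% of all genes, no member) and against FOXA1-OE tumors (6.77% of all genes, 5 members called, of which 4 higher and 1 lower). With only the groups compared in the fit, no member was called against control or FOXA1-OE tumors, beside 0% and 0.176% of all genes. At an unadjusted p under 0.05 the comparison with tumors labeled HNF4G-KO had 3 members (9.38%) and 18.0% of all genes. The members' median differences were -0.057, 0.061 and 0.16 on the log2 scale, against -0.026, -0.025 and 0.0029 over all genes.

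IL32 (ENSG00000008517.16, chr16:3065297-3082192, plus strand) encodes a proinflammatory cytokine that rodents lack. It was at 5.78, 6.58 and 11.1 RPKM in control tumors, 4.52, 4.35 and 7.27 RPKM in FOXA1-OE tumors and 10.8, 5.66, 5.69 and 7.15 RPKM in tumors labeled HNF4G-KO, 3 groups that overlap. With both changes it was at 32.4, 11.1, 12.2, 18.0 and 28.1 RPKM, and the lowest of these tumors was level with the highest of the others. IL32 rose by 1.81 on the log2 scale against FOXA1-OE tumors (SE 0.33, adjusted p = 0.00597, but 0.0784 with only these groups in the fit), from 5.38 ± 1.64 (SD, n = 3) to 22.5 ± 9.43 RPKM (SD, n = 4 mice). It rose by 1.36 against control tumors (SE 0.33, adjusted p = 0.0384), a call lost without any one control tumor, tumor 1 or tumor 5 (adjusted p 0.0669 to 0.156) and with the host stroma covariate (1.10, adjusted p = 0.0739). Against tumors labeled HNF4G-KO it stood 1.44 higher (adjusted p = 0.108). The FOXA1-OE effect was 1.89 larger with the knockout label than without it (95% interval 0.88 to 2.90), the largest such difference among the members, but its adjusted p was 0.312. Among all genes 0.0352% were called in this test of the difference of effects, and no member was, while 7 members (21.9%) and 9.02% of all genes had an unadjusted p under 0.05. The next largest of these differences were +1.32 in CCL20 and, downward, -1.27 in CXCL14 and -0.36 in TGFB3.

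CCL20 (ENSG00000115009.12, chr2:227805739-227817564, plus strand), the ligand of CCR6, was at 3.60, 3.88 and 4.50 RPKM in control tumors, 2.52, 2.38 and 1.00 RPKM in FOXA1-OE tumors, 7.12, 9.89, 8.42 and 4.54 RPKM in tumors labeled HNF4G-KO and 27.3, 12.2, 17.1, 7.49 and 4.30 RPKM with both changes. The groups without the knockout label lie below those with it, apart from tumor 5 with both changes, which falls within the control range. CCL20 rose by 2.04 on the log2 scale against FOXA1-OE tumors (SE 0.44, adjusted p = 0.0145, but 0.0511 without FOXA1-OE tumor 3 and 0.142 with only these groups in the fit). Against control tumors the difference was 1.25 with both changes (adjusted p = 0.147) and 0.73 with the HNF4G-KO label alone (adjusted p = 0.306).

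TNFSF15 (ENSG00000181634.7, chr9:114784652-114806039, minus strand), a TNF ligand also known as TL1A, was at 2.00, 1.55 and 1.48 RPKM in control tumors, 1.37, 1.15 and 0.731 RPKM in FOXA1-OE tumors, 3.85, 2.74, 2.91 and 4.07 RPKM in tumors labeled HNF4G-KO and 4.35, 3.87, 2.17, 2.63 and 1.61 RPKM with both changes. FOXA1-OE tumors were below all 9 tumors with the knockout label. TNFSF15 rose by 0.86 on the log2 scale between the FOXA1-OE groups (SE 0.22, adjusted p = 0.0289), a call lost without any one FOXA1-OE tumor, without tumor 1 or without the mouse of tumors 2 and 3 (adjusted p 0.0503 to 0.0873). Against control tumors, those labeled HNF4G-KO stood 0.71 higher (adjusted p = 0.0552). TNFSF10 went the other way between the FOXA1-OE groups, with 27.5, 21.3, 7.43, 22.5 and 18.0 RPKM where both changes were present, all below the FOXA1-OE tumors, and a difference of -1.02 (SE 0.30, adjusted p = 0.0615).

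Tumors labeled HNF4G-KO and controls share no sample with the FOXA1-OE groups, so the knockout-label differences of the 2 backgrounds can be set side by side. They are not independent, because both compare the same pool of knockout clones with Cas9 cells. A difference between the clones and the line would appear in both. Both also come from 1 fit with a shared spread. CX3CL1 (-2.22 and -2.28) and IL1RN (1.10 and 1.31) were called in both. INHBB (-1.504 and -1.31) and TNFSF15 (0.71 and 0.86) were called in one each at similar sizes. CSF1 (-0.57 and -0.20), IL11 (-0.62 and -0.072), IL18 (-0.82 and 0.072), CXCL14 (1.90 and 0.63), CCL20 (0.73 and 2.04) and IL32 (-0.075 and 1.81) differed more in size, and none of these 6 differences between backgrounds passed the test of the difference itself (adjusted p 0.312 to 0.562).

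**Figure D2:**
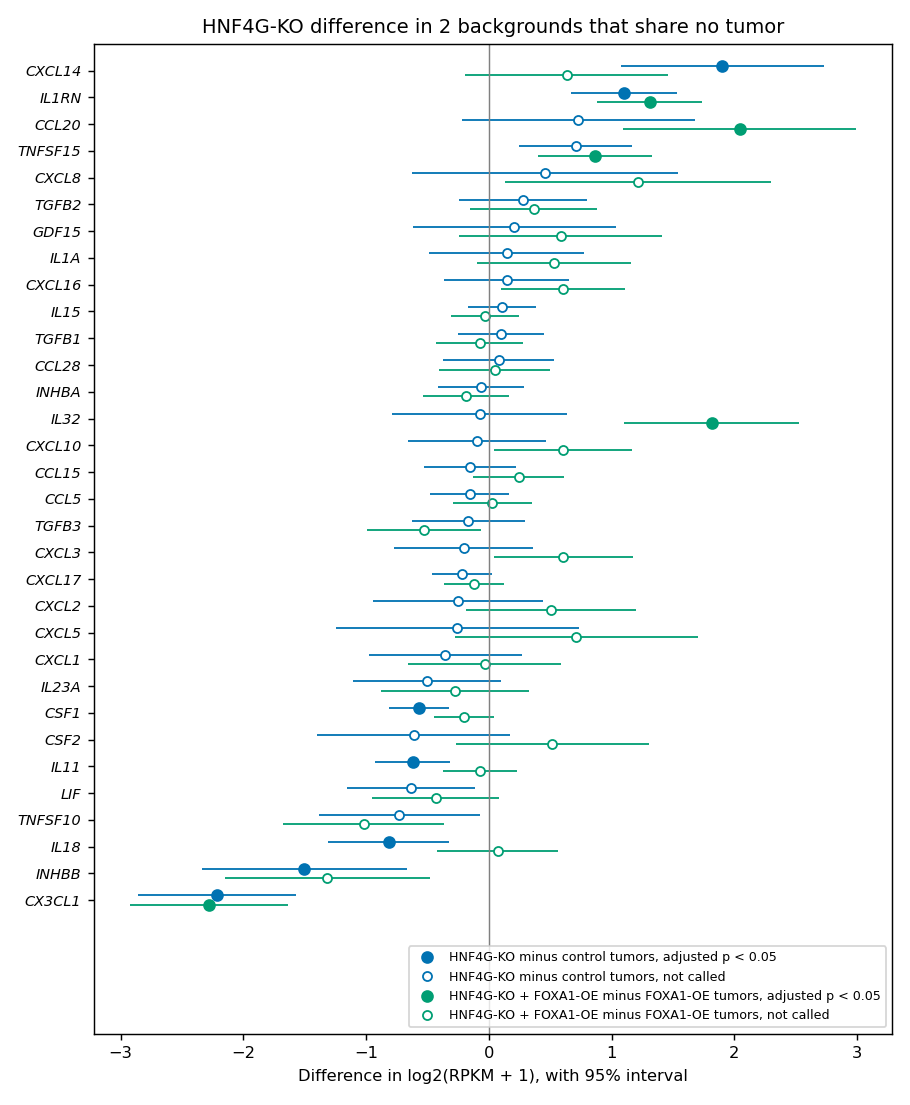
Difference in log2(RPKM + 1) of the 32 members with 95% interval, between tumors labeled HNF4G-KO and control tumors (blue) and between HNF4G-KO + FOXA1-OE and FOXA1-OE tumors (green), with filled points for an adjusted p under 0.05. CX3CL1 lies near -2.2 and IL1RN above 1 in both comparisons, whereas IL32 and CCL20 reach 1.8 or more only in the second, a difference between comparisons that did not pass its own test.

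One tumor carried many of the highest levels. Tumor 1 labeled HNF4G-KO + FOXA1-OE had the highest RPKM of the 15 primary tumors in 14 of the 32 members (43.8%) but in only 5.33% of all genes tested. The 14 were CXCL2, CXCL8, CXCL10, CXCL14, CXCL16, CCL15, CCL20, CCL28, IL1A, IL1RN, IL32, TNFSF15, TGFB1 and GDF15. In GDF15, a stress-induced TGF-β family member, it stood at 78.5 RPKM against 19.0 to 37.1 in the other 4 tumors of its group. In CXCL10 it was at 2.64 RPKM against at most 0.953 in any other tumor. This tumor was singled out after its values were seen. Without it, 4 members and 2.09% of all genes were called against control tumors, and 4 members and 4.78% of all genes against FOXA1-OE tumors. At the other end FOXA1-OE tumor 3 was lowest in 11 members (34.4%), among them CXCL3, CXCL5, CXCL8, CCL20 and GDF15, but also in 27.0% of all genes. Without it 4 members and 6.05% of all genes were called between the FOXA1-OE groups.

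**Figure D3:**
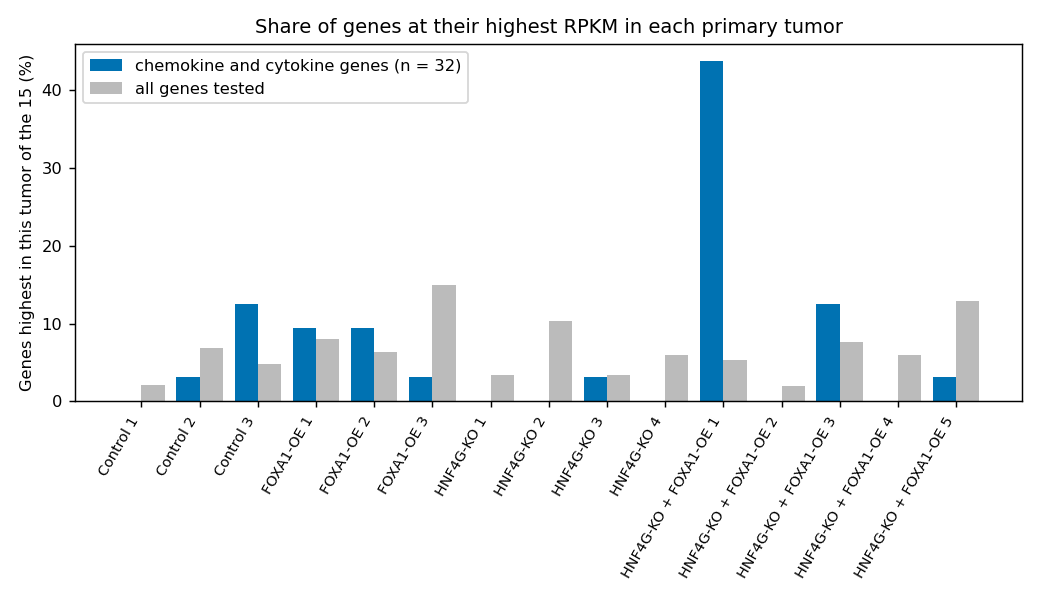
Percentage of genes whose highest RPKM among the 15 primary tumors is in the tumor named on the horizontal axis, for the 32 members (blue bars) and all genes tested (gray bars). The bar of HNF4G-KO + FOXA1-OE tumor 1 reaches 43.8% of the members against 5.33% of all genes.

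Metastases were compared with primary tumors within the 2 labels that had both. Under the double label, metastases 1, 3 and 4 lacked the FOXA1 level of the tumors. Metastasis and lower FOXA1 therefore cannot be told apart there. Over both labels 0.0804% of all genes were called, and 1 of 32 members, CXCL5 (ENSG00000163735.6, chr4:73995642-73998677, minus strand). It was at 0.0914 and 0.0963 RPKM in the HNF4G-KO mets, about 13 and 10 reads, against 5.31 to 8.72 RPKM in the 4 tumors of that label. In HNF4G-KO + FOXA1-OE mets 1 to 4 it was at 0.142, 4.16, 1.12 and 3.06 RPKM against 7.17, 4.46, 10.2, 4.39 and 1.45 RPKM in the tumors. The HNF4G-KO mets were thus far below their tumors, as was the spleen metastasis, and metastasis 3 of the double label was just below its tumors, whereas metastases 2 and 4 overlapped with theirs. Within the mouse of tumor 1 the spleen metastasis (0.142 RPKM) and the metastasis in fat (4.16 RPKM) differed widely. CXCL5 fell by 1.89 on the log2 scale (SE 0.28, limma adjusted p = 0.0255). With the mouse as a block, which pairs tumor and metastasis of the same animal, the difference was -1.82 and the call was lost (adjusted p = 0.182). It was also lost without the spleen metastasis (-1.71, adjusted p = 0.0645), with the host stroma covariate (adjusted p = 0.188), without a filter on RPKM (adjusted p = 0.102) and without the mice of tumors 3 or 4 labeled HNF4G-KO or of tumor 1, tumor 4 or metastasis 3 labeled HNF4G-KO + FOXA1-OE (adjusted p 0.0533 to 0.284). Within the labels the differences were -2.81 (adjusted p = 0.0631) and -0.97 (adjusted p = 0.529). The summed host stroma level was 82.5 RPKM in HNF4G-KO metastasis 1 and 436 RPKM, the highest of all libraries, in metastasis 2. Of the 50-base windows of CXCL5, 12.7% are also found in other genes, mainly an overlapping gene without a name.

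No member was called within either label alone, where 0% and 0.0151% of all genes were called. At an unadjusted p under 0.05 there were 3 members (9.38%) for HNF4G-KO, below the 13% of all genes, and 5 (15.6%) for HNF4G-KO + FOXA1-OE, against 8.99%. CXCL14 was at 111 and 34.3 RPKM in the HNF4G-KO mets and at 37.4, 111, 26.2 and 30.1 RPKM in the HNF4G-KO + FOXA1-OE mets, 3 of them below every tumor of their label. Those 3 were also the mets without the label's FOXA1 level, and the part of FOXA1 was not tested. The difference was -1.54 within the latter label (SE 0.45, adjusted p = 0.474) and -1.06 over both (adjusted p = 0.356). TGFB2 was at 2.74 and 4.48 RPKM in the HNF4G-KO mets and at 9.64, 9.55, 13.6 and 11.1 RPKM in their tumors (-1.39, SE 0.31, adjusted p = 0.182), without overlap. CCL15 was at 2.01 and 0.799 RPKM and at 2.30, 1.93, 0.561 and 1.96 RPKM in the 2 groups of mets, and between 0.202 and 1.14 RPKM in the 9 tumors (0.59 over both labels, adjusted p = 0.350). Its counts are uncertain, because 39.1% of its 50-base windows also belong to the read-through gene CCL15-CCL14 and others. TGFB3 was at 1.06 and 6.55 RPKM and at 1.17, 0.895, 2.93 and 2.70 RPKM in mets, against 0.608 to 1.57 RPKM in the tumors (0.68, adjusted p = 0.496). The metastasis at 6.55 RPKM was the one with the highest host stroma sum, and the part of host RNA in this level was not tested.

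Of the TGF-β family members, TGFB1 was at 11.2 to 31.6 RPKM and was not called in any comparison. TGFB2 was at 9.10, 7.41 and 10.1 RPKM in control tumors, 5.76, 5.60 and 3.22 RPKM in FOXA1-OE tumors and 5.53, 12.8, 6.80, 7.48 and 4.16 RPKM with both changes. It stood 0.69 lower in the last group than in tumors labeled HNF4G-KO (SE 0.22, adjusted p = 0.218). Of the 50-base windows of TGFB2, 32.4% are shared with transcripts that overlap it. GDF15 was between 13.3 and 78.5 RPKM and not called. The other members that were tested and gave no call were CXCL16 (15.5 to 62.5 RPKM), a membrane-bound chemokine, CXCL17 (0.0617 to 0.697), CCL5 (0.237 to 1.24), CCL28 (2.94 to 9.04), IL15 (0.858 to 1.60), IL23A (1.88 to 6.70), CSF2 (0.707 to 8.23), which encodes GM-CSF, and LIF (9.64 to 32.3). Of these, LIF, a cytokine of the IL-6 family, had the lowest adjusted p, with 24.1, 26.9 and 32.3 RPKM in control tumors against 12.7, 9.64, 14.8, 18.9 and 16.4 RPKM with both changes, no overlap and a difference of -0.86 (SE 0.24, adjusted p = 0.0674).

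Genes that read or relay these signals were counted as lists. Of 51 receptors 37 were tested, and in tumors labeled HNF4G-KO 3 of them fell and none rose, a share of 8.11% that is below the 9.33% of all genes. These were CXCR3, the receptor of CXCL10 and CXCL11 (1.41, 1.95 and 1.303 RPKM in controls against 0.132, 0.0911, 0.0786 and 0.1002, -1.21, adjusted p = 0.00144), CCR1, which binds CCL5 and CCL15 (-0.71, adjusted p = 0.0261), and IL1RL1, the receptor of IL33 (-0.72, adjusted p = 0.0314). CXCR3 fell with FOXA1-OE added as well, by 0.99 against controls (adjusted p = 0.00639) and by 1.04 against FOXA1-OE tumors (adjusted p = 0.00328). IL22RA1, a subunit of the IL-22 receptor, rose by 0.91 (adjusted p = 0.0493) and 1.17 (adjusted p = 0.0100) in the same 2 comparisons. With FOXA1-OE added, 2 receptors (5.41%) were called against controls, beside 3.7% of all genes. Against FOXA1-OE tumors, 2 receptors rose and 3 fell (13.5%, beside 6.77% of all genes), among them IL1R2, a decoy receptor for interleukin-1, which rose by 0.78 (adjusted p = 0.0271). Median differences over the 37 were 0.034 for the first comparison and, with FOXA1-OE added, -0.067 against controls and 0.0085 against FOXA1-OE tumors.

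Of 62 further ligands only 14 passed the filter, of which 3 (21.4%, beside 9.33% of all genes) fell and none rose in tumors labeled HNF4G-KO, with a list median of -0.51. Besides PF4V1 these were TNFSF12 (TWEAK), at 2.36, 4.03 and 3.04 RPKM in controls against 1.06, 1.17, 1.21 and 1.01 (-0.95, adjusted p = 0.00825), and IL10, an anti-inflammatory cytokine, at 2.53, 2.15 and 2.71 against 0.474, 0.750, 0.515 and 0.955 RPKM (-1.06, adjusted p = 0.0200). Both were also lower in all tumors with both changes than in all FOXA1-OE tumors, where IL10 fell by 1.85 (adjusted p = 0.00119) and TNFSF12 by 1.10 (adjusted p = 0.00365). In that comparison INHA, the inhibin α subunit, fell by 1.65 (adjusted p = 0.00972), and LTB, lymphotoxin β, rose by 1.14 (adjusted p = 0.00752), from at most 0.255 RPKM to between 0.959 and 3.12 RPKM. LTB also rose by 1.02 against control tumors (adjusted p = 0.0208), where IL10 fell by 1.28 (adjusted p = 0.0127), TNFSF12 by 1.02 (adjusted p = 0.00894) and PF4V1 by 0.73 (adjusted p = 0.0127). A share of 10.9% of the windows of TNFSF12 also belongs to its read-through with TNFSF13 and other genes.

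Of 36 genes of the NF-κB response 32 were tested, and 6.25% were called under the HNF4G-KO label and again between the FOXA1-OE groups, both below the share of all genes. In tumors labeled HNF4G-KO the ubiquitin ligase gene BIRC2 rose by 0.70 (adjusted p = 0.0355) and the complement gene C3 fell by 0.82 (adjusted p = 0.0235), and between the FOXA1-OE groups BCL3 and BIRC3 rose, by 0.78 (adjusted p = 0.0392) and 0.77 (adjusted p = 0.0449), with none called against control tumors. The list medians were 0.072, 0.098 and 0.016 on the log2 scale in these 3 comparisons, in that order. Of 29 genes of TGF-β and activin handling and response 26 were tested, of which 4 rose and 2 fell in tumors labeled HNF4G-KO (23.1%, beside 9.33% of all genes). TGFBI, an extracellular protein induced by TGF-β, was at 332, 297 and 291 RPKM in controls against 66.1, 91.2, 83.0 and 99.8 RPKM (-1.85, adjusted p = 0.00684), and PMEPA1, a feedback inhibitor, fell by 1.02 (adjusted p = 0.0167), whereas SMAD7, the inhibitory SMAD, rose by 0.99 (adjusted p = 0.0207), as did SKIL, ITGB6 and ID3. Against control tumors, 3 genes of this list (11.5%, beside 3.7%) fell with FOXA1-OE added, TGFBI by 2.26 (adjusted p = 0.00388), PMEPA1 by 1.47 (adjusted p = 0.00449) and ITGB8 by 1.10 (adjusted p = 0.0259). Against FOXA1-OE tumors 4 fell (15.4%, beside 6.77%), led by TGFBI at 2.498 (adjusted p = 0.00122), PMEPA1 at 1.84 (adjusted p = 0.000805) and ITGB8 at 1.02 (adjusted p = 0.0249), and none rose.

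Of 18 genes of interleukin-1 family processing and signaling 12 were tested, of which 2 (16.7%, beside 9.33% of all genes) were called in the first comparison. IRAK3, an inhibitory member of the kinase family, and IRAK4 rose in tumors labeled HNF4G-KO, by 0.94 (adjusted p = 0.00875) and 0.69 (adjusted p = 0.0195). IRAK3 was at 1.04, 0.671 and 1.28 RPKM in control tumors, 1.75, 2.02 and 1.86 in FOXA1-OE tumors, 2.604, 3.67, 2.85 and 2.25 in tumors labeled HNF4G-KO and 0.389, 1.05, 0.631, 1.25 and 0.645 with both changes. It fell by 1.12 with FOXA1-OE added to the knockout label (adjusted p = 0.0248). This call was lost with only the groups compared in the fit, where 0% of all genes were called. The FOXA1-OE effect on IRAK3 differed by -1.65 with and without that label (adjusted p = 0.0411). Of these lists IRAK3 was the only gene called in the test of the difference of effects. That call was lost with a pseudocount of 0.1 and with the host stroma covariate, each with 0% of all genes called. It was also lost without any one control tumor or any one tumor labeled HNF4G-KO. In mets no gene of the 5 lists was called.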

How the data were processed

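RNA-seq libraries of HPAF-II tumors and metastases (TruSeq stranded mRNA, single-end reads of 50 bases) were used, and the KPC cell lines of the series were not used here. The authors aligned reads with STAR 2.6.1a and counted them with featureCounts 2.0.4, per the submitters' processing notes, which also name DESeq2, and deposited RPKM values without further scaling. Their methods name GRCh37 and the processing notes GRCh38. Coordinates here are GRCh38 (GENCODE 44). The 58719 gene IDs were named by ID without version (58250 matched). The members and lists were chosen with earlier results of these data known.

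Depth was worked out from RPKM steps, of which at least 99.8% were whole reads within 0.05, and read numbers given are approximate. RPKM values were transformed to log2(RPKM + 1), which understates changes of low genes, and tumors, or mets, that shared a mouse were averaged. Genes averaging 0.3 RPKM or more were tested with limma 3.58.1 in R 4.3.3 (eBayes with trend) and Benjamini-Hochberg adjustment, with a threshold of 0.05. The 4 tumor groups of 14 mice formed one fit, and mets with tumors of both knockout labels (13 means) another, with 9 comparisons. Group means and SDs are over mice. The p-values measure the spread between mice bearing the same engineered cells. The fits were tested on simulated data. Figures used Python 3.11.15 and matplotlib 3.10.9.

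Named with full values were members called in any comparison and the 2 members of largest difference in each direction per comparison, and from each list the 3 called genes of largest difference. CXCL6, CXCL10, GDF15, LIF and the tumors singled out were added after values were seen. Tumors and mets were paired where they shared an animal (correlations of deviations 0.209, 0.249, 0.295 and -0.0657). Alternatives are given in the closing section.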

Additional observations from a re-analysis of the deposited data

Results flagged for a closer look

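Within groups of 4 mice, the highest or lowest mouse of each member was compared with the others by Dixon's ratio, the gap to the nearest mouse divided by the range. Of 64 groups tested 2 stood out, where chance gives about 1 in 20, or 3.2. GDF15 in tumors labeled HNF4G-KO + FOXA1-OE had a ratio of 0.886, because tumor 1 was at 78.5 RPKM and the other 3 mice at 23.1 to 28.1 RPKM. IL11 in tumors labeled HNF4G-KO had a ratio of 0.833, with tumor 1 at 0.312 RPKM and the others at 0.483 to 0.520 RPKM.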

How the results depend on the processing

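Of the 18 calls of members, each refitted under 14 to 16 alternatives, 200 of 270 refits kept the call, 70 lost it and none reversed its direction. CX3CL1 and IL1RN in tumors labeled HNF4G-KO against controls were called in all 15. With only the groups compared in the fit, 12 members were called for HNF4G-KO against control, where all genes called also went up, to 30.9%, and 0 for HNF4G-KO + FOXA1-OE against control or FOXA1-OE, with 0% and 0.176% of all genes. Without a filter 3 members and 1.19% of all genes were called for HNF4G-KO + FOXA1-OE against control. With host stroma as a covariate 1 member and 0.935% of all genes were called for HNF4G-KO + FOXA1-OE against HNF4G-KO. For mets over both labels 0 members were called with that covariate, without a filter, without the spleen metastasis and with the mouse as a replicate block, with at most 0.0402% of all genes. For HNF4G-KO mets 1 was called with a filter of 1 RPKM and with a pseudocount of 0.1 (0.0281% and 0.0251% of all genes). The cause was not tested.

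Leaving out 1 mouse at a time gave 2 to 6 members for HNF4G-KO against control. Among these were 2 without control tumor 2 (1.56% of all genes), 4 without control tumor 3 (3.04%) and 6 without HNF4G-KO tumor 1 (5.57%), against 9.33% with all mice. For HNF4G-KO + FOXA1-OE against control there were 1 to 5. It was 1 without control tumor 2, 2 without control tumor 3 and 3 without control tumor 1, with 0.874%, 0.693% and 1.87% of all genes. Against FOXA1-OE there were 4 to 7, with 3.53% to 8.11% of all genes. Mets over both labels and HNF4G-KO mets each gave 0 to 2. In both cases it was 2 without the mouse of HNF4G-KO tumor 2, with 199 (1%) and 356 (1.79%) of all genes called. Other comparisons had 0 throughout. The tumor numbers are no pairing (mean correlation of deviations at most 0.0732), and with the number as a replicate block 6, 5 and 9 members were called for HNF4G-KO and HNF4G-KO + FOXA1-OE against control and for HNF4G-KO + FOXA1-OE against FOXA1-OE, with 9.28%, 3.58% and 13% of all genes. Depth limited the members below 0.3 RPKM, 6 of which had a median of 10 reads or fewer per library.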
